A study of Homo sapiens with 6 samples.

Results

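The HOX cluster genes were followed in human definitive endoderm, the germ layer that forms gut, liver and pancreas, made in culture from the human embryonic stem cell line HuES8. Members were all genes whose symbol was HOXA, HOXB, HOXC or HOXD followed by a number, which gave 39 of the 58830 genes in the table. They lay in 4 clusters of 11 (HOXA), 10 (HOXB), 9 (HOXC) and 9 genes (HOXD). RNA-seq of total RNA had been carried out on 6 libraries, 3 of endoderm with GATA6-AS1 knocked down (KD) and 3 of wild-type endoderm (DE). GATA6-AS1 is the long noncoding RNA antisense to GATA6, an endoderm transcription factor. All 6 libraries came from cells kept 3 days in DMEM-F12 with 0.2% BSA. Activin A at 100 ng/mL was present throughout, and on the first day also CHIR at 2.5 µM, which activates Wnt signalling by blocking GSK3. How the knockdown was done, how many lines or clones it used and whether DE cells held a control construct is not stated in the labels.

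HOX genes encode homeodomain transcription factors that give cells their position along the head-to-tail axis. Each cluster runs from low paralogue numbers at its 3′ end to high numbers at its 5′ end, and in embryos the low-numbered genes come on earlier and nearer the head, the high-numbered genes later and nearer the tail. HOX proteins bind DNA together with TALE cofactors such as PBX and MEIS proteins, retinoic acid turns on the 3′ genes, and Polycomb and Trithorax proteins hold the clusters silent or active. In the gut, posterior HOX genes mark the hindgut and its derivatives, as HOXB13 does in prostate and rectum.

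In this endoderm the RNA came from a few separate stretches of the clusters. With "on" set at a group mean of at least 1 TPM (reads per unit of gene length, scaled to the same total in each library), the same 11 genes were on in KD and in DE. They were HOXD9 to HOXD13, which are 5 consecutive genes at the 5′ end of HOXD, together with HOXB13, HOXB2, HOXB3, HOXC4, HOXA13 and HOXA11. The other 28 genes were on in neither group. The 11 genes held between 94.2% and 96.7% of the summed TPM of all 39 genes in each library.

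**Figure D1:**
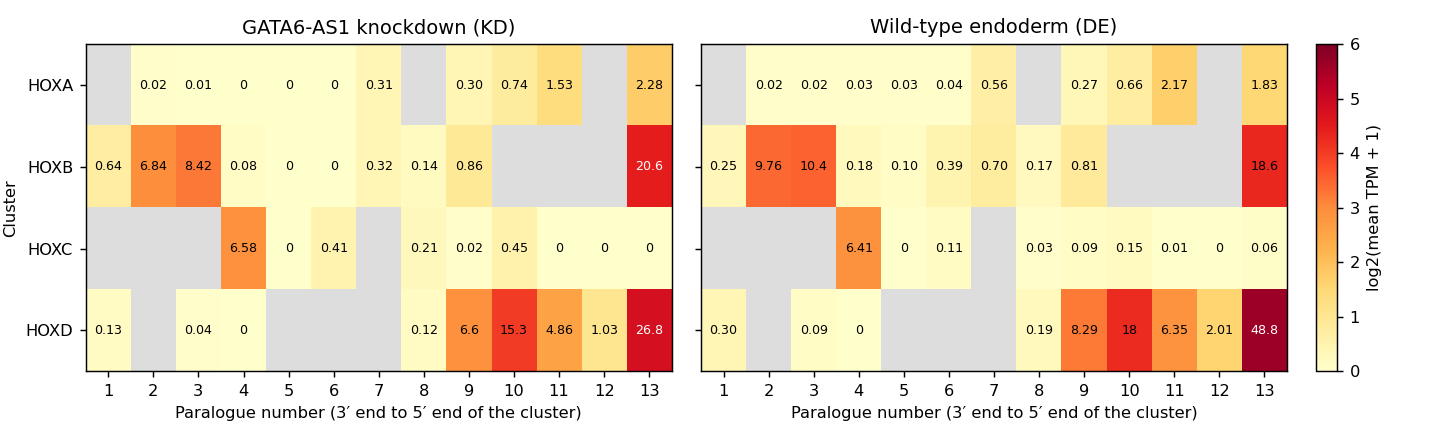
Mean TPM of each HOX gene in KD (left panel) and DE (right panel), with clusters down the page and paralogue number across it; colour is log2(mean TPM + 1), n = 3 libraries a group, and grey marks numbers with no gene in that cluster or with none shown. The cells at or above 1 TPM are the same 11 genes in both panels, and HOXD13 is the darkest in each.

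The promoters of HOXD, the cluster with the most genes on, are shown. As in the other clusters, its genes stood on both sides of the line, HOXD13 to HOXD10 on, HOXD8 low and HOXD4 listed at 0 in every library. Of the 8 HOXD promoters found, these 6 are printed. Each line gives the 250 bases before the RefSeq start of the gene on GRCh38.p14, plus strand, 5′ to 3′. Capitals mark every match on either strand to TATAAA (the TATA box), CCAAT (the box bound by NF-Y), GATAA (the core of GATA factor sites) and TTTATG (a caudal-type site), merged where matches overlap.
HOXD13 (chr2:176092471-176092720): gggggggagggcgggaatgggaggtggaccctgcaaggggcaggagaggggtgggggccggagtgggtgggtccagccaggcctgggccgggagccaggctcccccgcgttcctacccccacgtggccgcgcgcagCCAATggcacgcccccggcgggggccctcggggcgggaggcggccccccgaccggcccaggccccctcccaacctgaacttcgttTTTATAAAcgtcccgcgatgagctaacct
HOXD12 (chr2:176099545-176099794): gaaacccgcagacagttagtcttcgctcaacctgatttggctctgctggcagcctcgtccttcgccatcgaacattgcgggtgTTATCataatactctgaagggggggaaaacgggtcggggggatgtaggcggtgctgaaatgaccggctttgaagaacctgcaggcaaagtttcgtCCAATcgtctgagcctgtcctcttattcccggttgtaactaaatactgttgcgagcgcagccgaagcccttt
HOXD11 (chr2:176107030-176107279): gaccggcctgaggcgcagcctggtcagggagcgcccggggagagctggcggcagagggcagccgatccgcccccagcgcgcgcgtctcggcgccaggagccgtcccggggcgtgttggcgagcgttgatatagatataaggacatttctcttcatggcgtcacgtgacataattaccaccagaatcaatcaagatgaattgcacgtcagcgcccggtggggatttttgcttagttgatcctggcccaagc
HOXD10 (chr2:176116528-176116777): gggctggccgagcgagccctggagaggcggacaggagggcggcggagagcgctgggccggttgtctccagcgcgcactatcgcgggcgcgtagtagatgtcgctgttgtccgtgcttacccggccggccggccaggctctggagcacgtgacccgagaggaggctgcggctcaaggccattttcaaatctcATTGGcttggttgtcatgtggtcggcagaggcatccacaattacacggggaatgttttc
HOXD8 (chr2:176129455-176129704): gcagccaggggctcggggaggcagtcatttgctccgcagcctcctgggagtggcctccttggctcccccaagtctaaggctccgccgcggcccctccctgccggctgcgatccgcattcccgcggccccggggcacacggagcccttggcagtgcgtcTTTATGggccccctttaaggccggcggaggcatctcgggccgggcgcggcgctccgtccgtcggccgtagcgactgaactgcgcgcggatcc
HOXD4 (chr2:176151300-176151549): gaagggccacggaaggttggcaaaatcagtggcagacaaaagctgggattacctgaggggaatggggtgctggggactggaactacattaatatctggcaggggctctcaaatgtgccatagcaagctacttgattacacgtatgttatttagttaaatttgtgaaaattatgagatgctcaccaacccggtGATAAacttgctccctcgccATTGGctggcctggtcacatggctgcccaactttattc

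HOXD13 held a CCAAT match and 2 overlapping strand matches to TATAAA. HOXD12 held 1 CCAAT and 1 GATAA match, HOXD11 none of the 4 motifs, HOXD10 1 CCAAT match, HOXD8 1 TTTATG match, and HOXD4 1 CCAAT and 1 GATAA match. Of the 2 not printed, HOXD3, near silent, held 1 CCAAT and 1 GATAA match, and HOXD1, low, held 1 CCAAT match and 31 CpG dinucleotides. Promoters were found for 20 of the 39 genes, with HOXC4 and HOXC5 sharing the same window. Of these 20, 17 held CCAAT, against 32.0% of 35116 promoters of the same length, 4 held TATAAA (10.7% of all), 3 held GATAA (20.4%) and 3 held TTTATG (9.64%). The HOX promoters had a median of 20.5 CpG dinucleotides, against 11 over all promoters, and the median was 21 in the 7 tested genes and 20 in the other 13. HOXD4, with 4 CpG, had the fewest of the HOX promoters and HOXA13, with 40, the most. These are matches of letters in a window and say nothing of binding.

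Depth set how low a level could be seen. TPM keep no depth, and the reads behind them, estimated from the steps between low values, came to 18646535, 21530045 and 24515469 in the KD libraries and 23767374, 22225965 and 18998723 in the DE libraries. For a gene of 2 kb, 1 TPM was therefore worth 11.3 to 16.2 reads. GATA6-AS1, which checks the labels, had 180, 163 and 126 TPM in KD and 389, 421 and 313 TPM in DE, a log2 change of -1.26 (SE 0.164, limma adjusted p = 0.0128). Without DE replicate 1 or KD replicate 2 the adjusted p was 0.0717 or 0.0612. Transcripts encoded by mitochondrial DNA made up 28.3%, 28.8% and 36.2% of TPM in KD and 28.5%, 24.6% and 38.0% in DE, so replicate 3 was the highest in both groups. Nothing in the labels says that replicates were separate cultures. The p-values therefore set the difference between groups only against the spread among sampled libraries, and that spread may be technical.

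The label of endoderm was checked against markers of the type. FOXA2, SOX17, CXCR4, GATA4, EOMES, CER1, HHEX and GATA6 were all present in every library, and the 8 summed to 17855 to 19647 TPM in KD and 24625 to 28237 TPM in DE. Most of these sums was CER1, with a mean of 16814.5 TPM in KD and 23570.1 TPM in DE. Of these 8, 4 were lower in KD past the threshold and 0 higher (8 lower with the replicate number as a block), where 1.50% of all tested genes were lower (6.62% with the block). Of 6 markers of pluripotent stem cells, 4 were higher in KD and 0 lower, where 1.77% of all tested genes were higher, and POU5F1 stood at 1247 TPM in KD and 682 TPM in DE. In bulk RNA, fewer cells of a type and less RNA per cell cannot be told apart.

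HOXD, on chromosome 2 from 176092891 to 176190907 (GRCh38, GENCODE 29), was the most active cluster. Its 9 genes summed to 54.9 ± 6.33 TPM in KD and 84.0 ± 11.6 TPM in DE (SD, n = 3 each). That was 51.9 ± 2.87% of all HOX TPM in KD and 60.8 ± 2.03% in DE. The KD libraries summed to 61.4, 54.6 and 48.7 TPM and the DE libraries to 94.1, 86.6 and 71.3 TPM, without overlap.

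HOXD13 (ENSG00000128714.5, plus strand, 176092891 to 176095938), the last gene of the cluster, patterns the digits and the hindgut and urogenital end of the body. It had 31.7, 25.5 and 23.2 TPM in the KD libraries and 55.5, 49.5 and 41.3 TPM in the DE libraries. The groups did not overlap, and the highest KD library stood below the lowest DE library. Its mean was 26.8 ± 4.38 TPM in KD and 48.8 ± 7.10 TPM in DE (SD, n = 3 each), a ratio of 0.549. On the log2(TPM + 1) scale the change was -0.84 (SE 0.156, 95% interval -1.21 to -0.48), and it passed when adjusted over all 17711 genes (limma adjusted p = 0.0364). The 2-sided exact permutation test of the 3 against 3 values gave 0.1, the smallest p that this design allows. About 372 to 420 estimated reads stood behind each KD value and 598 to 889 behind each DE value, and no exon base of HOXD13 is shared with another annotated gene. The call was lost when any single library other than DE replicate 3 was left out, with limma adjusted p from 0.0561 with KD replicate 1 left out to 0.163 with KD replicate 2 left out, while the log2 change stayed between -0.96 and -0.75. Its mean over the 6 libraries exceeded that of 89.3% of the genes above 0.

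HOXD13 was the only one of the 11 tested HOX genes that passed, 1 lower and 0 higher in KD. Over all 17711 genes tested, 1.50% passed lower in KD, 1.77% higher and 3.27% in either direction. The log2 change was negative in 8 of the 11 genes (51.0% of all tested genes), with a median of -0.29 over the 11 and -0.01 over all tested genes. At an unadjusted p under 0.05 stood 3 HOX genes, HOXD13, HOXB2 and HOXD12, against 15.4% of all genes. In 4 of the 11, HOXD13, HOXD12, HOXD9 and HOXB3, the KD libraries were all below the DE libraries, as in 10.7% of all genes, and in 0 were they all above (10.1% of all genes). With the replicate number as a block, 2 HOX genes passed lower in KD, HOXD13 and HOXB2 (limma adjusted p = 0.00178 and 0.0328), against 6.62% of all genes lower, 5.88% higher and 12.5% in either direction.

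**Figure D2:**
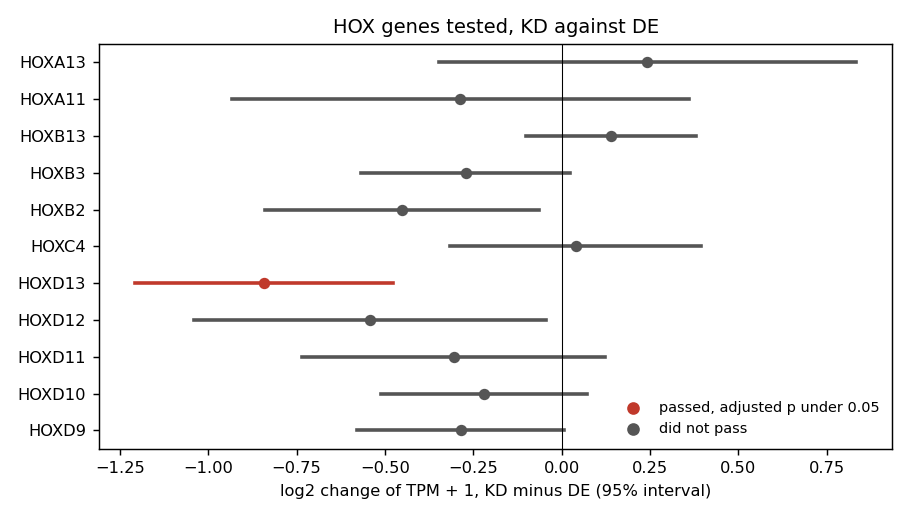
log2 change of TPM + 1, KD minus DE, for the 11 tested HOX genes, ordered by cluster down the page; points are limma estimates, lines their 95% intervals, and red marks an adjusted p under 0.05 over all genes. HOXD13 is the red point at -0.84, and all 5 HOXD genes lie left of 0.

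HOXD12, the neighbour of HOXD13, had 1.05, 1.03 and 1.01 TPM in KD and 2.80, 1.85 and 1.38 TPM in DE. The KD values lay below the DE values, with 8 to 11 estimated reads behind each KD value and 12 to 27 behind each DE value. Its log2 change of -0.54 (SE 0.213, interval -1.04 to -0.043) did not pass (limma adjusted p = 0.279). HOXD11 had 5.21, 4.73 and 4.63 TPM in KD and 6.69, 7.75 and 4.62 TPM in DE, a log2 change of -0.31 (limma adjusted p = 0.536). Its groups overlapped through DE replicate 3. Both genes shape the limb in mice.

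HOXD10, which acts in the limb and the lower spinal cord, had 16.5, 16.2 and 13.3 TPM in KD and 19.1, 18.5 and 16.4 TPM in DE, overlapping in a narrow band. The log2 change was -0.22 (limma adjusted p = 0.501). HOXD9 had 6.73, 6.57 and 6.48 TPM in KD and 9.34, 8.16 and 7.37 TPM in DE, without overlap, and a log2 change of -0.29 (interval -0.58 to 0.0074, limma adjusted p = 0.342). HOXD10 and HOXD11 share 16.8% and 21.4% of their own exon bases with each other in GENCODE 29, on the same strand, so reads there could not be assigned to either. HOXD12 and HOXD9 share none.

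The level along HOXD did not fall evenly from its 5′ end. In order from HOXD13 to HOXD8 the means were 26.8, 1.03, 4.86, 15.3, 6.60 and 0.12 TPM in KD, and 48.8, 2.01, 6.35, 17.99, 8.29 and 0.19 TPM in DE. HOXD12 thus stood below both of its neighbours in every library, and HOXD8 had 0 to 5 estimated reads per library next to 71 to 125 for HOXD9. Downstream of HOXD8, HOXD3, HOXD4 and HOXD1 had means of 0.04, 0 and 0.13 TPM in KD and 0.09, 0 and 0.30 TPM in DE. In GENCODE 29, 80.5% of the exon bases of HOXD4 and 62.2% of those of HOXD3 are shared on the same strand with AC009336.2, so reads there could not be told apart.

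Within each library HOXD13 also took a smaller part of the HOX RNA. It made up 25.3 ± 2.79% of all HOX TPM in KD and 35.3 ± 1.60% in DE, and 48.6 ± 2.60% of HOXD TPM in KD and 58.0 ± 0.886% in DE (SD, n = 3 each). The ratio of HOXD13 to HOXD10 was 1.75 ± 0.174 in KD and 2.70 ± 0.196 in DE, and that of HOXD13 to HOXB13 1.30 ± 0.227 in KD and 2.63 ± 0.479 in DE. Against HOXD12 the ratio was 25.9 ± 3.68 in KD and 25.5 ± 5.19 in DE. These ratios are taken within a library and carry no test of their own, since they rest on the same HOXD13 values.

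**Figure D3:**
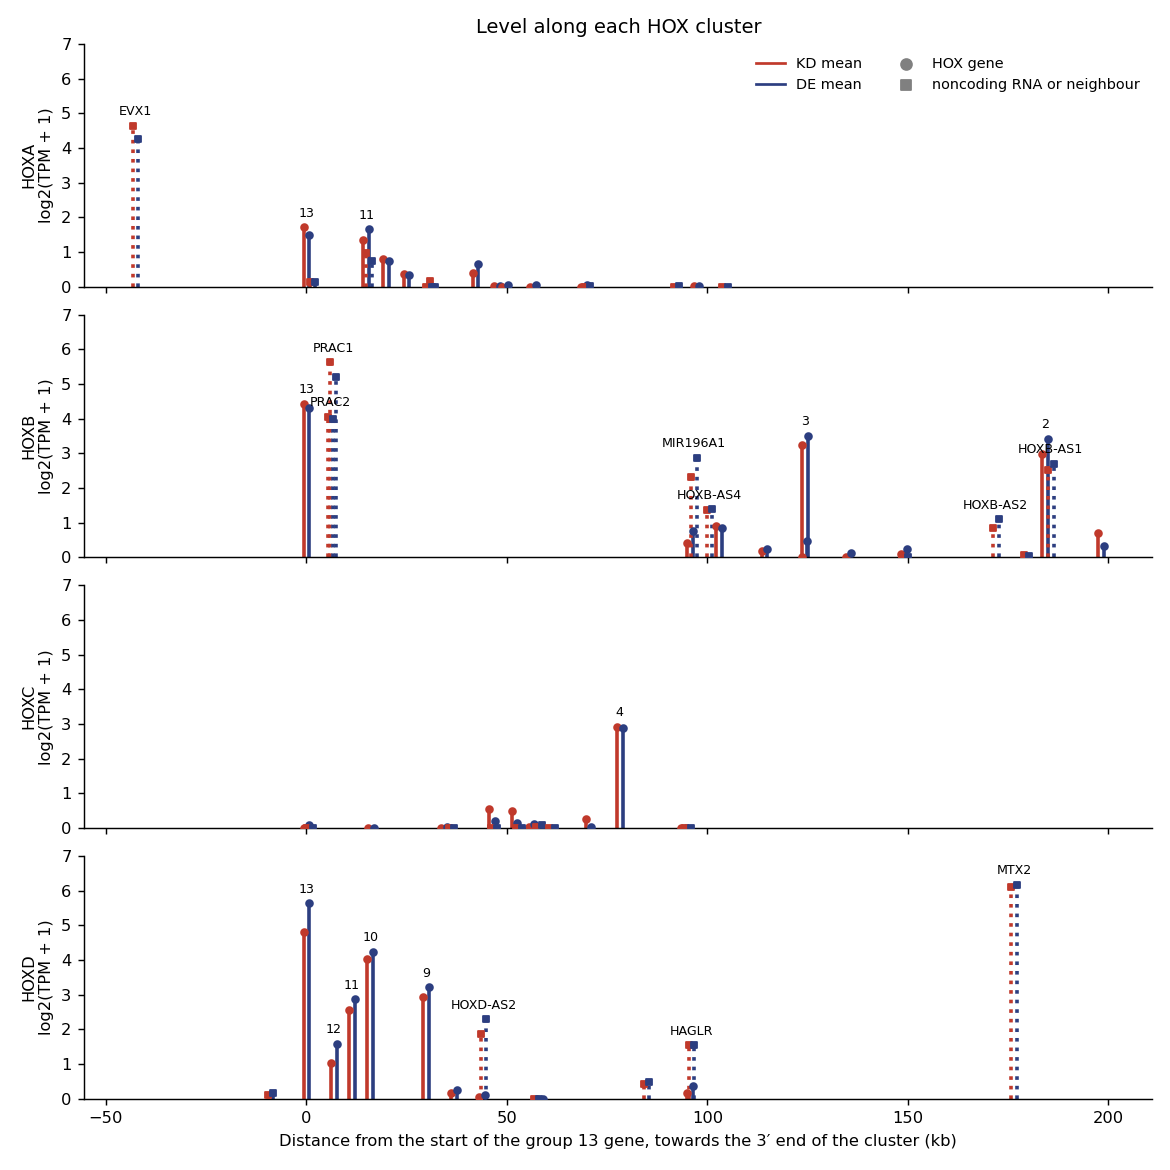
log2(mean TPM + 1) of HOX genes (circles) and of noncoding RNAs and neighbouring genes (squares) against distance in kb from the start of the group 13 gene towards the 3′ end, a panel a cluster; red is KD, drawn just left of DE in blue, and numbers name the HOX genes that were on. HOXD shows 5 adjacent HOX genes that were on and then low bars for the HOX genes from HOXD8. The noncoding HOXD-AS2 and HAGLR stand above 1 TPM in that stretch. HOXB13 stands beside PRAC1 and PRAC2, with PRAC1 the taller, and EVX1 stands apart on the 5′ side of HOXA13.

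HOXB, transcribed from the minus strand of chromosome 17 between 48528526 and 48729178, was on near both ends. Its 10 genes summed to 37.9 ± 3.27 TPM in KD and 41.4 ± 3.23 TPM in DE, a log2 ratio of -0.12, and the libraries overlapped. HOXB13 (ENSG00000159184.7, 48724763 to 48729178) had 20.3, 22.0 and 19.6 TPM in KD and 17.6, 19.7 and 18.6 TPM in DE. The groups overlapped at 19.6 to 19.7 TPM, and the log2 change of 0.14 (interval -0.10 to 0.38, limma adjusted p = 0.654) did not pass. The difference between its change and that of HOXD13 was not tested.

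The 3′ HOXB genes that were on, HOXB2 and HOXB3, serve hindbrain segmentation in vertebrates. HOXB2 had 6.30, 8.08 and 6.14 TPM in KD and 10.05, 11.3 and 7.95 TPM in DE, with KD replicate 2 just above DE replicate 3. Its log2 change was -0.45 (SE 0.165), with a limma adjusted p of 0.242, and of 0.0328 with the replicate number as a block. HOXB3 had 9.40, 8.26 and 7.60 TPM in KD and 11.3, 10.2 and 9.57 TPM in DE, which did not overlap, and a log2 change of -0.27 (interval -0.57 to 0.024, limma adjusted p = 0.378). HOXB3 shares 7.94% of its exon bases with HOXB4 and HOXB6 on its own strand and 5.27% with HOXB-AS1 and HOXB-AS3 on the other. HOXB1, next to HOXB2 and the earliest HOXB gene in hindbrain, was low, with a mean of 0.641 TPM in KD and 0.254 TPM in DE. These rest on 7 to 14 estimated reads per KD library and 1 to 9 per DE library.

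By paralogue number, 6 genes with low values stood between HOXB3 and HOXB13. By position, the annotated span of HOXB3 (48548870 to 48604912) contains HOXB4, HOXB5 and most of HOXB6 (48595751 to 48604992). Only HOXB7, HOXB8 and HOXB9 lie between HOXB3 and HOXB13. HOXB9 (0.86 TPM in KD, 0.81 TPM in DE), HOXB7 (0.32 TPM in KD, 0.70 TPM in DE) and HOXB8 (0.14 TPM in KD, 0.17 TPM in DE) were low in both groups, low meaning a mean of 0.1 to 1 TPM. HOXB4 was low in DE (0.18 TPM) and near silent, a mean above 0 but under 0.1 TPM, in KD (0.08 TPM). HOXB5 was listed at 0 in KD with 4 estimated reads over the 3 DE libraries. HOXB6 was listed at 0 in all 3 KD libraries, for a gene in which 3 reads are worth 0.143 to 0.204 TPM over the 6 libraries, and had 5, 11 and 4 estimated reads in the DE libraries, a mean of 0.39 TPM. HOXB6 was not among the tested genes, and without the filter its limma adjusted p was 0.255. It shares 16.6% of its exon bases with HOXB3 and 16.3% with HOXB-AS3.

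**Figure D4:**
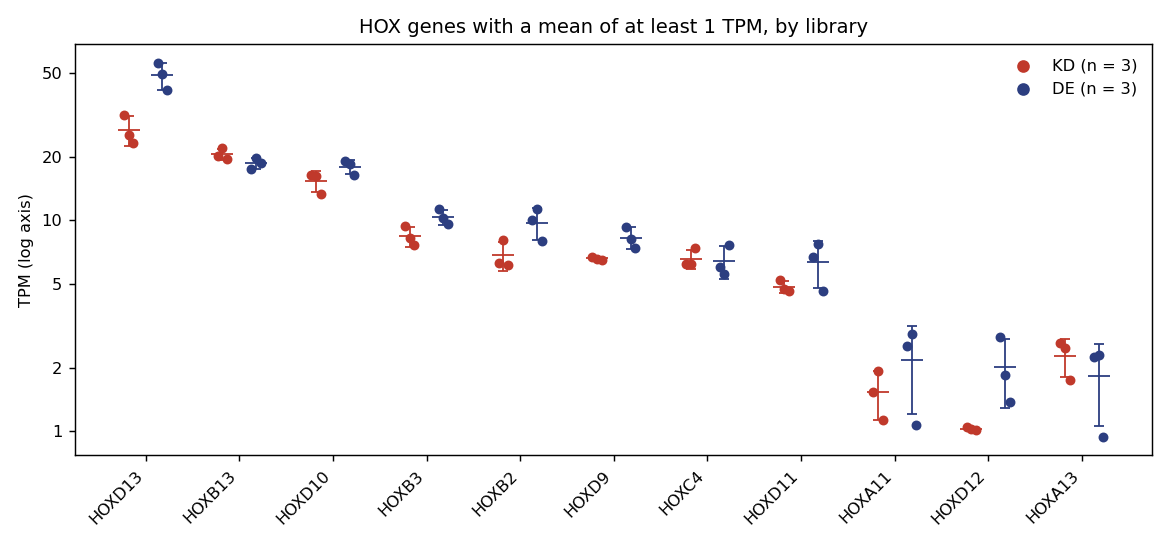
TPM on a log axis in each library for the 11 HOX genes that were on, ordered by mean; red points (left of each pair) are KD libraries, blue points DE libraries, lines the mean and bars 1 SD, n = 3 a group. HOXD13, HOXD12, HOXD9 and HOXB3 show no overlap between the groups, and the DE values of HOXA11, HOXA13 and HOXD12 spread the most.

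HOXC, on chromosome 12 from 53938765 to 54056030 on the plus strand, had a single gene on. HOXC4 (ENSG00000198353.7, 54016931 to 54056030), which is also active in lymphoid cells, had 6.18, 6.20 and 7.36 TPM in KD and 6.0, 5.54 and 7.67 TPM in DE. The groups overlapped, and the log2 change was 0.04 (interval -0.31 to 0.40, limma adjusted p = 0.969). Without DE replicate 2 it was -0.043, and without KD replicate 3 it was -0.032. HOXC4 shares 17.8% of its exon bases with HOXC5 and HOXC6, and HOXC4 and HOXC5 have the same promoter window in RefSeq.

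Among the other HOXC genes, HOXC6 had 10, 9 and 10 estimated reads in the KD libraries and 4, 2 and 2 in the DE libraries, a mean of 0.41 TPM in KD and 0.11 TPM in DE. Without the filter on low values its log2 change was 0.35 (limma adjusted p = 0.236). HOXC10 (0.45 TPM in KD, 0.15 TPM in DE) was low in both groups, HOXC8 (0.21 TPM in KD, 0.03 TPM in DE) was low in KD and near silent in DE, and HOXC9 (0.02 TPM in KD, 0.09 TPM in DE) was near silent in both. HOXC10 had 4, 8 and 10 estimated reads in KD and 3, 3 and 1 in DE. HOXC8 had 1, 5 and 2 in KD and 0, 1 and 0 in DE. As in HOXC6, their KD values lay above their DE values, while those of HOXB5 and HOXB6 lay below. None of these genes reached the level tested. HOXC13 and HOXC11 were listed at 0 in KD and had 3 and 1 estimated reads over the DE libraries. HOXC12 and HOXC5 were listed at 0 in all 6 libraries. For HOXC12, which shares no exon base, a count of 0 allows up to 0.159 TPM in the shallowest library (3 reads, counting error only), while 59.9% of the exon bases of HOXC5, a symbol that 2 genes of GENCODE 29 carry, are shared.

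HOXA, transcribed from the minus strand of chromosome 7, was on at its 5′ end at a low level. Its 11 genes summed to 5.19 ± 0.727 TPM in KD and 5.71 ± 1.63 TPM in DE, with overlap. HOXA13 (ENSG00000106031.8, 27193503 to 27200106), the counterpart of HOXD13 in limb, gut and genital tract, had 2.62, 2.48 and 1.75 TPM in KD and 2.25, 2.30 and 0.944 TPM in DE. Its log2 change of 0.24 (SE 0.252, interval -0.35 to 0.83) did not pass (limma adjusted p = 0.794), and without DE replicate 3 it was -0.0077. HOXA11, which acts in limb, kidney and uterus, had 1.54, 1.93 and 1.13 TPM in KD and 2.54, 2.90 and 1.07 TPM in DE, and a log2 change of -0.29 (interval -0.93 to 0.36, limma adjusted p = 0.767). DE replicate 3 was the lowest DE library in both genes. HOXA11-AS overlaps 31.1% of the exon bases of HOXA11 on the opposite strand, and whether the reads were counted by strand is not stated.

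HOXB9, HOXA10 (0.74 TPM in KD, 0.66 TPM in DE) and, in DE, HOXB7 (0.32 TPM in KD, 0.70 TPM in DE) were the members just below the line, while HOXD12, HOXA13 and HOXA11 were those just above it. HOXA9 (0.30 TPM in KD, 0.27 TPM in DE) and HOXA7 (0.31 TPM in KD, 0.56 TPM in DE) were low in both groups, and HOXA-AS3 overlaps 62.5% of the exon bases of HOXA7. Towards the 3′ end, HOXA2 and HOXA3 were near silent in both groups. HOXA4, HOXA5 and HOXA6 were listed at 0 in all KD libraries and had 1 estimated read each over the 3 DE libraries, too few to tell the groups apart.

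By paralogue number, group 13 held the most RNA, with 49.7 ± 4.99 TPM in KD and 69.3 ± 7.43 TPM in DE from 4 genes, 3 of them on. Group 10 followed with 16.5 ± 1.75 TPM in KD and 18.8 ± 1.65 TPM in DE, and then group 3 with 8.47 ± 0.944 TPM in KD and 10.5 ± 0.880 TPM in DE, each with 1 gene on. In group 11, 2 of 3 genes were on, and in groups 12, 9, 4 and 2, 1 gene each. No gene of groups 5, 6, 7 and 8 was on, nor were HOXB1 and HOXD1 of group 1. Group 5 was the lowest, listed at 0 in all KD libraries and at 0.127 ± 0.0467 TPM in DE from 3 genes.

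Among the 11 genes that were on, HOXD13 was the highest in both groups. In KD the libraries of HOXD13 (23.2 to 31.7 TPM), HOXB13 (19.6 to 22.0 TPM) and HOXD10 (13.3 to 16.5 TPM) formed 3 levels without overlap between neighbours. In DE, HOXD13 (41.3 to 55.5 TPM) stood above HOXB13 and HOXD10, which overlapped each other. HOXB3, HOXB2, HOXD9, HOXC4 and HOXD11 followed between 4.62 and 11.3 TPM over both groups, with neighbours in that order overlapping, except that HOXD11 lay below the others in KD. HOXB3 overlapped HOXB2 and lay above HOXD9 and HOXC4 in both groups. HOXA13, HOXA11 and HOXD12 came last, between 0.944 and 2.90 TPM.

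**Figure D5:**
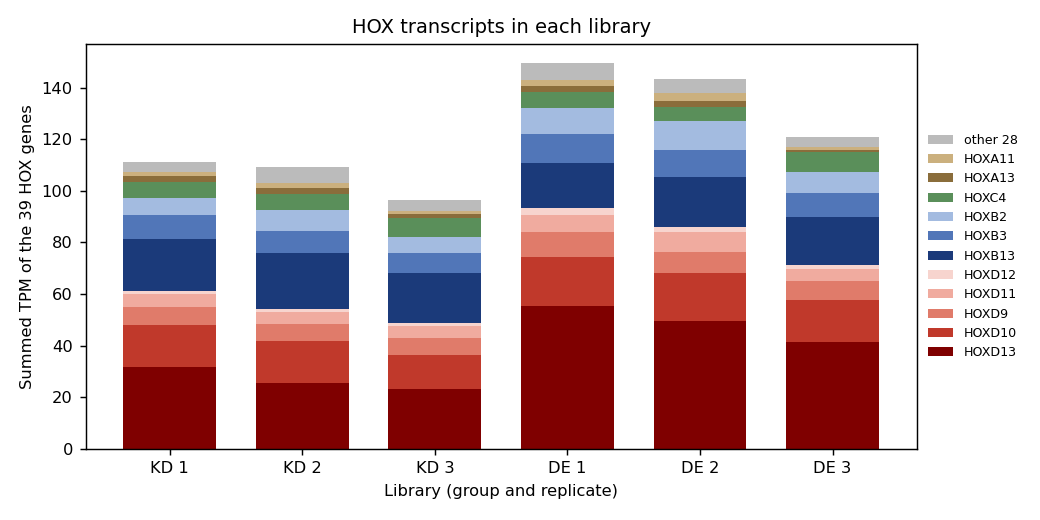
Summed TPM of the 39 HOX genes in each library, KD 1 to 3 left of DE 1 to 3, with a colour a gene for the 11 that were on and grey for the other 28. The sums lie between 96.5 and 149 TPM, and the HOXD13 segment at the base is shorter in each KD bar than in each DE bar.

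Summed over the 39 genes, HOX RNA came to 105.7 ± 8.01 TPM in KD and 137.9 ± 15.03 TPM in DE, 0.0106% of all TPM in KD and 0.0138% in DE. HOXD was the 1 cluster of the 4 whose library sums did not overlap between KD and DE.

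Most listed rows of noncoding RNAs of the clusters were at 0. Of 37 rows, 23 were at 0 in all 6 libraries, HOTAIR, HOTAIRM1, MIR10A and MIR10B among them. Many of these 23 rows are numbered extra entries of HOTAIR, HOTAIRM1 and HOTTIP, so fewer separate genes were at 0. Of the 6 tested, 0 passed by limma, at an unadjusted p under 0.05 or with voom on the estimated reads. HOXD-AS2, antisense to HOXD3, had 2.68 ± 1.58 TPM in KD and 3.93 ± 0.354 TPM in DE (limma adjusted p = 0.530). HAGLR, antisense to HOXD1 and HOXD3, had 1.93 ± 0.714 TPM in KD and 1.93 ± 0.371 TPM in DE, and HOXB-AS1 4.74 ± 0.286 TPM in KD and 5.53 ± 1.21 TPM in DE. HOTTIP, which lies beside HOXA13 and is known to keep the 5′ HOXA genes active, had 0.103 TPM in KD and 0.108 TPM in DE.

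Of 6 microRNA genes looked for in the clusters, MIR196A1 had reads, 0, 3 and 3 estimated reads in the KD libraries and 4, 3 and 2 in the DE libraries (limma adjusted p = 0.647). The miR-196 family represses HOX transcripts, HOXB8 among them, and its mature sequence is shown for that reason, with the seed (bases 2 to 8) in capitals.
hsa-miR-196a-5p: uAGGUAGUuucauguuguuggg

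The gene lies on chromosome 17 from 48632490 to 48632559, inside the spans of HOXB7 and HOXB-AS4, and total RNA libraries do not measure the mature form.

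Several genes beside the clusters, EVX1, PRAC1, CALCOCO1 and MTX2 among them, had higher levels than the HOX genes nearest to them. EVX1, a homeobox gene of the primitive streak next to HOXA13, had 25.2, 23.0 and 23.7 TPM in KD and 19.9, 19.3 and 15.4 TPM in DE, all KD libraries above all DE libraries. Its log2 change of 0.39 had a limma adjusted p of 0.182, and of 0.0424 with the replicate number as a block. EVX2, its counterpart beside HOXD13, averaged 0.0707 TPM in KD and 0.132 TPM in DE. PRAC1, next to HOXB13 and known from prostate and rectum, had 51.9, 45.7 and 48.1 TPM in KD and 30.8, 35.9 and 40.1 TPM in DE, again without overlap (log2 change 0.44, limma adjusted p = 0.116, and 0.0434 with the block). PRAC2, beside PRAC1, had 15.6 ± 6.73 TPM in KD and 14.997 ± 5.65 TPM in DE. Beyond HOXC, CALCOCO1 had 17.2 ± 0.137 TPM in KD and 22.2 ± 0.984 TPM in DE (limma adjusted p = 0.113, and 0.0272 with the block). Beyond HOXD, MTX2 had 67.5 ± 13.6 TPM in KD and 71.0 ± 17.3 TPM in DE. Of the tested neighbours (6 at HOXA, 5 at HOXB, 6 at HOXC and 4 at HOXD), 0 passed by limma without the block. An unadjusted limma p under 0.05 was reached by 3 (EVX1, PRAC1 and CALCOCO1), and by 15.4% of all tested genes. The same 3 passed with the block, as did 12.5% of all tested genes in either direction. With voom on the estimated reads 2 (EVX1 and CALCOCO1) passed, as did 12.6% of all genes.

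The caudal genes CDX1, CDX2 and CDX4, which turn on posterior HOX genes in the embryo, and the ParaHox genes PDX1, GSX1 and GSX2 were all below the level tested. CDX2 averaged 0.0535 TPM in KD and 0.156 TPM in DE, and CDX4 had 0.468, 0.101 and 0.163 TPM in KD and 0.0923, 0 and 0 TPM in DE. The 6 genes summed to between 0.597 and 1.20 TPM in KD and 0.472 and 0.883 TPM in DE. Over the 6 libraries CDX2 reached at most 0.203 TPM, CDX1 0.266 TPM and CDX4 0.468 TPM. Days before day 3 were not sampled, and the part of caudal genes in HOX expression was not tested.

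Of 11 TALE cofactors, 9 were tested and 0 passed by limma, with a median log2 change of -0.02. At an unadjusted limma p under 0.05 stood 1 (PKNOX2), against 15.4% of all tested genes. PBX2 had 186 ± 11.8 TPM in KD and 217 ± 14.6 TPM in DE (limma adjusted p = 0.327), and PKNOX2 3.69 ± 0.409 TPM in KD and 5.64 ± 0.352 TPM in DE (limma adjusted p = 0.102). With the replicate block these were the 2 members that passed, both lower in KD (0.0377 for PBX2 and 0.0329 for PKNOX2), as they did with voom on the estimated reads (0.0384 and 0.0388). Over all tested genes 6.62% passed lower with the block, and 12.6% passed in either direction with voom. TGIF2 (94.5 TPM in KD, 85.5 TPM in DE), TGIF1 (71.8 TPM in KD, 71.0 TPM in DE) and MEIS3 (70.8 TPM in KD, 71.4 TPM in DE) came next in level. MEIS1 and MEIS2, the usual partners of posterior HOX proteins, were below 1 TPM in every library, with MEIS1 at 0.271 TPM in KD and 0.532 TPM in DE.

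Of 14 tested genes of retinoic acid signalling, 1 was lower in KD and 0 higher, where 1.50% of all tested genes were lower and 1.77% higher. RXRG, a retinoid X receptor, had 11.4, 10.1 and 12.1 TPM in KD and 18.5, 18.8 and 16.9 TPM in DE, a log2 change of -0.64 (limma adjusted p = 0.0298). Its adjusted p exceeded 0.05 without any single library other than DE replicate 3, at up to 0.165 without KD replicate 2. With the block, RXRG, RARB, ALDH1A3 and CYP26A1 passed lower in KD and RARG higher, and the same 5 passed with voom on the estimated reads. Over all tested genes 12.5% passed in either direction with the block and 12.6% with voom. CYP26A1, which degrades retinoic acid, had the highest mean, 474 ± 89.6 TPM in KD and 693 ± 146 TPM in DE (limma adjusted p = 0.245, and 0.00411 with the block). In KD its libraries overlapped those of CRABP2, a retinoic acid binding protein, at 436 ± 21.1 TPM in KD and 460 ± 17.5 TPM in DE. ALDH1A2, the main enzyme of retinoic acid synthesis in embryos, averaged 0.0643 TPM in KD and 0.0409 TPM in DE.

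Among Polycomb genes, which keep HOX clusters silent, 2 of 26 tested were higher in KD and 0 lower, where 1.77% of all tested genes were higher and 1.50% lower. PHC1, a subunit of Polycomb repressive complex 1, had 147, 166 and 140 TPM in KD and 83.7, 80.9 and 73.3 TPM in DE, a log2 change of 0.92 (limma adjusted p = 0.00751, and 0.0517 without KD replicate 2). JARID2, which recruits Polycomb repressive complex 2, had 143, 149 and 155 TPM in KD and 94.5, 103 and 89.6 TPM in DE, a log2 change of 0.64 (limma adjusted p = 0.0154). Its call was lost without DE replicate 1 (0.0985) or without KD replicate 1, 2 or 3 (0.0631, 0.106 and 0.0580). The core of the second complex stood at 58.5 TPM in KD and 59.8 TPM in DE for EZH2, 31.3 TPM in KD and 30.6 TPM in DE for SUZ12, and 8.92 TPM in KD and 9.08 TPM in DE for EED. The median log2 change of the 26 genes was -0.0064.

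Of 17 Trithorax genes and other activators of HOX transcription, 1 was lower in KD and 0 higher, where 1.50% of all tested genes were lower. MLLT3, a reader of acetylated histones that acts in transcription elongation, had 8.77, 7.10 and 6.29 TPM in KD and 14.2, 14.3 and 11.3 TPM in DE, a log2 change of -0.77 (limma adjusted p = 0.0480). That call was lost without any single library other than DE replicate 3, at up to 0.202 without KD replicate 2. With the block, under which 6.62% of all genes passed lower, ASH2L passed too (0.0354), at 40.6 ± 5.42 TPM in KD and 49.5 ± 6.40 TPM in DE. KMT2A, the methyltransferase that maintains HOX expression, had 19.0 ± 0.826 TPM in KD and 19.0 ± 1.69 TPM in DE.

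Markers of other cell types that carry HOX transcripts were measured beside the fall of HOXD13. Paraxial mesoderm markers summed to 5.33 to 7.09 TPM in KD and 6.04 to 8.81 TPM in DE, 1 of 6 was tested (TBX6) and it did not pass. Lateral and extraembryonic mesoderm markers summed to 23.2 to 24.7 TPM in KD and 21.6 to 22.9 TPM in DE, and 3 of 6 were tested. Of these, TBX5 was higher and HAND1 lower in KD, where 1.77% of all tested genes were higher and 1.50% lower. HAND1 had 0.746 ± 0.362 TPM in KD and 4.30 ± 0.552 TPM in DE. ISL1, at 6.01 ± 0.928 TPM in KD and 9.23 ± 0.514 TPM in DE, did not pass (limma adjusted p = 0.0829). With the block ISL1 passed lower in KD (limma adjusted p = 0.0259), as did 6.62% of all tested genes. Neuroectoderm markers summed to 32.4 to 33.2 TPM in KD and 25.6 to 29.6 TPM in DE, and neither of the 2 tested passed. Fibroblast markers summed to 73.9 to 79.7 TPM in KD and 46.7 to 56.3 TPM in DE. Of 3 tested, 1 (THY1) was higher in KD (1.77% of all tested genes), and THY1 alone carried the higher sum. COL1A1 (14.4 TPM in KD, 18.1 TPM in DE) and COL1A2 (20.9 TPM in KD, 19.3 TPM in DE) did not pass. DCN was at most 0.0138 TPM and POSTN at most 0.371 TPM. Neural crest markers summed to 55.4 to 68.0 TPM in KD and 45.6 to 60.7 TPM in DE. Of 4 tested, 1 (FOXD3) was higher in KD (1.77% of all tested genes), and 3 with the block (5.88% of all). SOX10 was at 0 in every library. The log2 change was -0.84 for HOXD13, beside a median of -0.73 over the 8 endoderm markers, of which 4 passed. The part of these cell types in the HOX values was not tested.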

How the data were processed

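TPM values of 58830 genes in 1 table are as the authors deposited them, and each of the 6 columns sums to 1000000. GRCh38, HISAT2 2.1.0, featureCounts and DESeq2 are named in the submitters' processing notes. The annotation release and whether counting used strand are not stated there. TPM are shares of a library, so a larger share of other RNA lowers every value. Reads were estimated from TPM and GENCODE 29 exon lengths. Between 88.2% and 89.0% of low values (under 50 reads, 37138 matched genes) lay within 0.02 of a whole number.

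A gene was tested where 3 or more of the 6 libraries reached 1 TPM, on log2(TPM + 1), a scale that understates the change of low genes. limma 3.58.1 in R 4.3.3 (eBayes with trend) gave 2-sided p-values, which were adjusted over all genes by Benjamini-Hochberg and called under 0.05. Exact permutation tests used scipy 1.17.1. Promoters and the microRNA are RefSeq's (GRCh38.p14).

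The values of 1 member and of some listed genes are not reported here. Members, lists, tests and alternatives were chosen with earlier results of these data known. Values are given for each HOX gene that was on, and from other lists for up to 4 members with the smallest p and up to 4 with the highest level. HAGLR, HOTTIP, EVX2, MTX2, CDX2, CDX4, MEIS1, ALDH1A2, ASH2L, EED, EZH2, SUZ12 and KMT2A were named for their known roles or place after their values were seen. After removal of group means, same-numbered KD and DE libraries correlated at 0.108, 0.144 and 0.347 over genes, all above the 0.1 set for pairing. This rests on the data and not on a label, and the unmatched KD replicate 1 and DE replicate 2 correlated at 0.121. Deviations from a group mean cancel within the group. A likeness of the replicate 3 libraries alone thus raises correlations among replicates 1 and 2, matched or not. The check therefore cannot settle pairing by number, and blocked values are given only as an alternative where they change a call. Alternatives were other pseudocounts, filters, scalings, variance settings, thresholds, the block and each library left out.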

Additional observations from a re-analysis of the deposited data

How the results depend on the processing

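HOXD13 stayed lower in KD under every alternative run, with a log2 change between -0.96 and -0.75, but did not always pass the threshold. The number of HOX genes that passed was 1 at the settings reported, 0 without a filter on low values, without the variance trend or at a threshold of 0.01, and 2 (HOXD13 and HOXB2) with quantile normalization, median-ratio scaling or the replicate block. It was 0 to 1 when 1 library was left out, and 1 only without DE replicate 3. HOXD13 had a limma adjusted p of 0.0910 without a filter and of 0.0501 without the trend. It had 0.00609 without mitochondrial genes and 0.00197 with voom on the estimated reads, an alternative chosen after seeing the data. Without replicate 3 of both groups it was 0.0204. Over all genes, 579 passed as reported, 239 without a filter, 1735 with quantile normalization, 1743 with median-ratio scaling, 1700 without mitochondrial genes, 2215 with the replicate block, 1212 without replicate 3 of both groups, 1847 with voom, 1053 at a threshold of 0.1 and 106 at 0.01. With 1 library left out, 87 to 610 passed. GATA6-AS1 kept its fall, with a log2 change of -1.38 to -1.11 when a library was left out. It missed the threshold without DE replicate 1 or KD replicate 2 (limma adjusted p = 0.0717 and 0.0612), and a threshold of 0.01 at -1.26. The sign turned in 3 cases, all in genes that did not pass: HOXA13 without DE replicate 3 (-0.0077), and HOXC4 without DE replicate 2 (-0.043) or KD replicate 3 (-0.032). With 1 library left out, the log2 change of HOXA13 ran from -0.0077 to 0.37 and that of HOXC4 from -0.043 to 0.16. With a line of 0.1 TPM in place of 1 TPM, 23 HOX genes were on in KD and 24 in DE. The causes of these shifts were not tested. The block changed no call of a HOX gene other than HOXB2. Depth limits the genes under 1 TPM, where a few reads decide a value.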
